A study of Homo sapiens with 6 samples.

Results

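The tau gene MAPT and its neighbours in chromosome band 17q21.31 were examined in cultured neurons. The cells had been made from progenitors of KOLF2.1J, a widely used line of human induced pluripotent stem cells. Members were the 31 CTCF peaks and 27 H3K27ac peaks on chromosome 17 that overlapped, or lay between, ARHGAP27, PLEKHM1, CRHR1, SPPL2C, MAPT, STH, KANSL1, LRRC37A and LRRC37A2. These 58 peaks came from 122371 in all, in lists of 43677 CTCF and 78694 H3K27ac peaks. The span ran from position 45393908, the lower end of ARHGAP27, to 46600000. Chromatin immunoprecipitation followed by sequencing (ChIP-seq) had been performed on 2 CTCF, 2 H3K27ac and 2 input libraries of neurons from this line, a clonal line. Each peak list covers both libraries of its antibody, so no value of a single library, no spread between libraries and no test between samples can be given. Sequencing depth is unknown because the lists hold no counts. All positions are 1-based on hg38, the build named in the submitters' processing notes, and gene intervals are those of RefSeq on GRCh38.p14.

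CTCF is a zinc finger protein that binds DNA and, with cohesin, holds the bases of chromatin loops. The acetyl mark H3K27ac, on histone H3, is found at active promoters and enhancers. MAPT encodes tau, a protein that binds microtubules in axons and forms the deposits of tauopathies. The band around it carries a large inversion polymorphism and flanking segmental duplications, and its haplotypes are associated with neurodegenerative disease. The wider study asked which distant elements regulate MAPT. The positions of the elements it tested by luciferase assay or dCas9-KRAB were not used here, so peaks are placed relative to genes alone.

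The start sites of the neighbours differed in acetylation, and the sequences before them are shown because the peak lists can be read against them. RefSeq start windows of 300 bases, 250 before to 50 after an annotated start, were matched for 8 of the 9 genes, 13 windows in all. MAPT was not matched. The 250 bases before the start are printed 5′ to 3′ on the gene's strand (GRCh38.p14), with GGGCGG or its reverse complement in capitals. KANSL1 is shown at 3 starts, the first 2 acetylated and the last not. PLEKHM1 shows a weak peak at the edge of its start, CRHR1 a CpG-rich start with no acetylation, and the last pair a sequence shared by duplicated genes.
KANSL1 start 46192782, chr17:46192783-46193032, minus strand: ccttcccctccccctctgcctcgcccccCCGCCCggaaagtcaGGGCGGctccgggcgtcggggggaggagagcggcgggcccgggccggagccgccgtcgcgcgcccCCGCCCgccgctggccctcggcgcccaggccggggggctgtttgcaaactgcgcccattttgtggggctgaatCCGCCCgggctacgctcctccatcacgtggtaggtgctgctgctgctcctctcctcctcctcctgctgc
KANSL1 start 46194050, chr17:46194051-46194300, minus strand: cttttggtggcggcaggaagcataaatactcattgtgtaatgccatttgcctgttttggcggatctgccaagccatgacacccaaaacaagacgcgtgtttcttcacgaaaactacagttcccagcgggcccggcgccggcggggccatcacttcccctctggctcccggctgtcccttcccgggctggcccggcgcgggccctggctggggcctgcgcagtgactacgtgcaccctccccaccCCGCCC
KANSL1 start 46224759, chr17:46224760-46225009, minus strand: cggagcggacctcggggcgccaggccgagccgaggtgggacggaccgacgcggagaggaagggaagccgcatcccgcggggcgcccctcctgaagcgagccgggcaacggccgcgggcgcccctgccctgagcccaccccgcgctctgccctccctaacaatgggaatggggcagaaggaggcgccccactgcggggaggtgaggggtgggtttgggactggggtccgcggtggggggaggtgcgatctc
PLEKHM1 start 45490721, chr17:45490722-45490971, minus strand: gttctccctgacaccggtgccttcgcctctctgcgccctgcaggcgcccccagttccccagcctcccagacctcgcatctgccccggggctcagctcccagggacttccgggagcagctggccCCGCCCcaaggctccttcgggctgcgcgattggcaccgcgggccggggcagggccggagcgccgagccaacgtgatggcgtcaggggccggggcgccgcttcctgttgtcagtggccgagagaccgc
CRHR1 start 45784320, chr17:45784070-45784319, plus strand: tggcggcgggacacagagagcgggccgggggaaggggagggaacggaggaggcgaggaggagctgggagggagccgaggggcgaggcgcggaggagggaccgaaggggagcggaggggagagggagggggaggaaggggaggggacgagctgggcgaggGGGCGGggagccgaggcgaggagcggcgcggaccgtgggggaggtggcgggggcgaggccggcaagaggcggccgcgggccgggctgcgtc
LRRC37A start 46295131, chr17:46294881-46295130, plus strand: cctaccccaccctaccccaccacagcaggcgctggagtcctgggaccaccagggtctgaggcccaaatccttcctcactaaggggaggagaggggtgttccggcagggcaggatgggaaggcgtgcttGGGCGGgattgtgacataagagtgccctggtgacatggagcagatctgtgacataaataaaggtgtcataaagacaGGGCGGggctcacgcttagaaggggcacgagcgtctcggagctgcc
LRRC37A2 start 46512710, chr17:46512460-46512709, plus strand: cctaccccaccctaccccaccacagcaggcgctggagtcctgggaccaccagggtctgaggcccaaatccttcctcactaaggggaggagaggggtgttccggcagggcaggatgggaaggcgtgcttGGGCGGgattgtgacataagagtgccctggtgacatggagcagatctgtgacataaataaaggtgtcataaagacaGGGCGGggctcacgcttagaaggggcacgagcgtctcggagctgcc

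GGGCGG, the box bound by SP1-family factors, was present on either strand in 11 of the 13 windows, beside 56.3% of the 22132 windows of protein-coding genes. These 13 are not independent, since several belong to the same gene and the LRRC37A window is identical to a window of LRRC37A2. TATAAA was found in 0 of 13, beside 9.46%. The CTCF core motif, searched as a consensus with unspecified bases at its variable positions, was found on neither strand in any of the 13, beside 2.52% of protein-coding windows. No capitals mark it or TATAAA in the printed sequences. A CTCF peak met 43.9% of the windows with that core and 19.98% of those without it. The absence of these letters from a window says nothing of binding nearby.

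Of the 9 genes, 4 overlapped an H3K27ac peak, which is 44.4% (95% Wilson interval 18.9 to 73.3%, counting error alone), beside 69.0% of the 19974 protein-coding genes. CTCF peaks met 5 of the 9, or 55.6% (95% Wilson interval 26.7 to 81.1%), beside 55.6% of protein-coding genes. Neither share stood apart from its background. MAPT, KANSL1 and LRRC37A carried both marks, a class that held 47.2% of protein-coding genes. ARHGAP27 and CRHR1 had CTCF and no H3K27ac, as did 8.34% of protein-coding genes. PLEKHM1 had H3K27ac and no CTCF (21.7% of protein-coding genes). SPPL2C, STH and the stretch of LRRC37A2 inside the span had neither (22.7%).

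**Figure D1:**
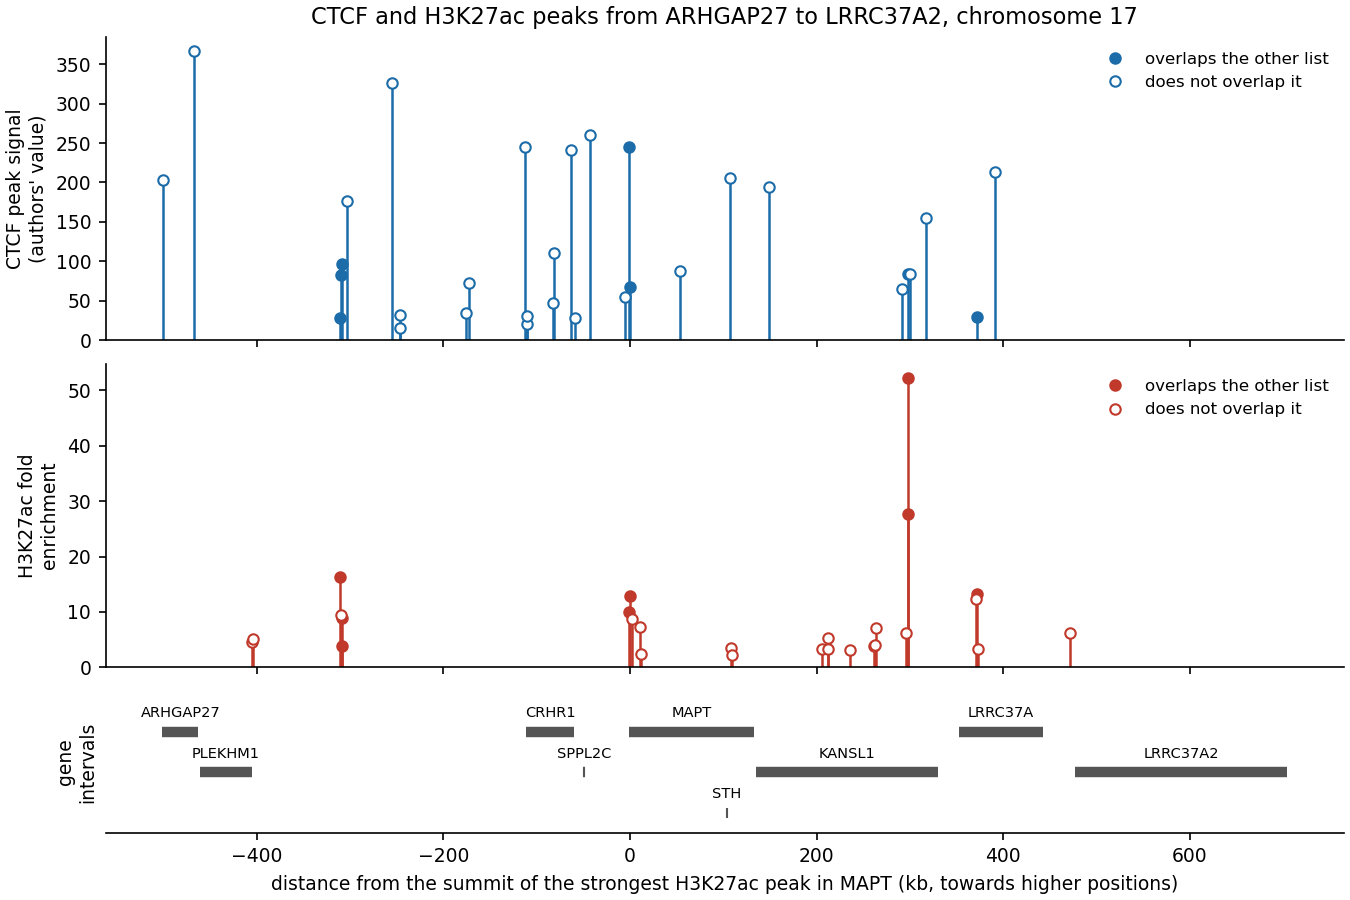
Peaks from ARHGAP27 to LRRC37A2 by distance of their summit from the strongest H3K27ac summit in MAPT (kb). The upper panel gives the authors' CTCF peak signal and the middle panel the H3K27ac fold enrichment, with filled points for peaks that overlap the other list. Grey bars are gene intervals, with LRRC37A2 drawn to the end of the span. The highest acetylation, 52.2-fold, stands in KANSL1, and 15 CTCF peaks fill the stretch below MAPT that has no H3K27ac.

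The acetylated sequence at the lower-coordinate end of MAPT came as 3 peaks within 3.83 kb, of which 3490 bp were covered. The file does not name its H3K27ac signal column. From its values and layout, the authors' value was read as the fold enrichment at a peak's summit. The first peak, from 45893958 to 45894344, lay outside the gene interval, which begins at 45894554, and inside the antisense gene MAPT-AS1, with a fold enrichment of 9.95. The second, from 45894519 to 45896663, had 12.9 and overlapped MAPT, MAPT-AS1 and the intronic transcript MAPT-IT1. The third, from 45896825 to 45897782, had 8.74. All 3 were above the list's median of 4.74, at percentiles between 76.97 and 85.97 of the list.

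A strong CTCF peak from 45894149 to 45894661, with a signal of 245 (the authors' value on an unstated scale), bridged the first 2 of these acetylated intervals. Its summit at 45894402 fell in the 174 bp that separated them, 58 bp after the first and 117 bp before the second. This summit lay below the lower end of MAPT, although the peak overlapped the gene. A weaker CTCF peak from 45895482 to 45895821, with a signal of 67.0, lay wholly inside the second interval, 168 bp from its summit.

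A similar arrangement occurred in KANSL1. There the CTCF peak from 46193248 to 46193783 had its summit at 46193500, in a space of 77 bp between acetylated intervals of 52.2-fold and 27.6-fold. The summit lay 2 bp after the first interval and 76 bp before the second. These were the only 2 of the 31 CTCF peaks in the span whose summit lay between H3K27ac peaks at most 1 kb apart, beside 3.97% of the whole CTCF list. Among the CTCF peaks that overlapped H3K27ac, they were 2 of 7, or 28.6% (95% Wilson interval 8.22 to 64.1%), beside 13.8% of 12278 in the list. This arrangement was chosen for description after the peaks were seen, and the interval includes the background.

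**Figure D2:**
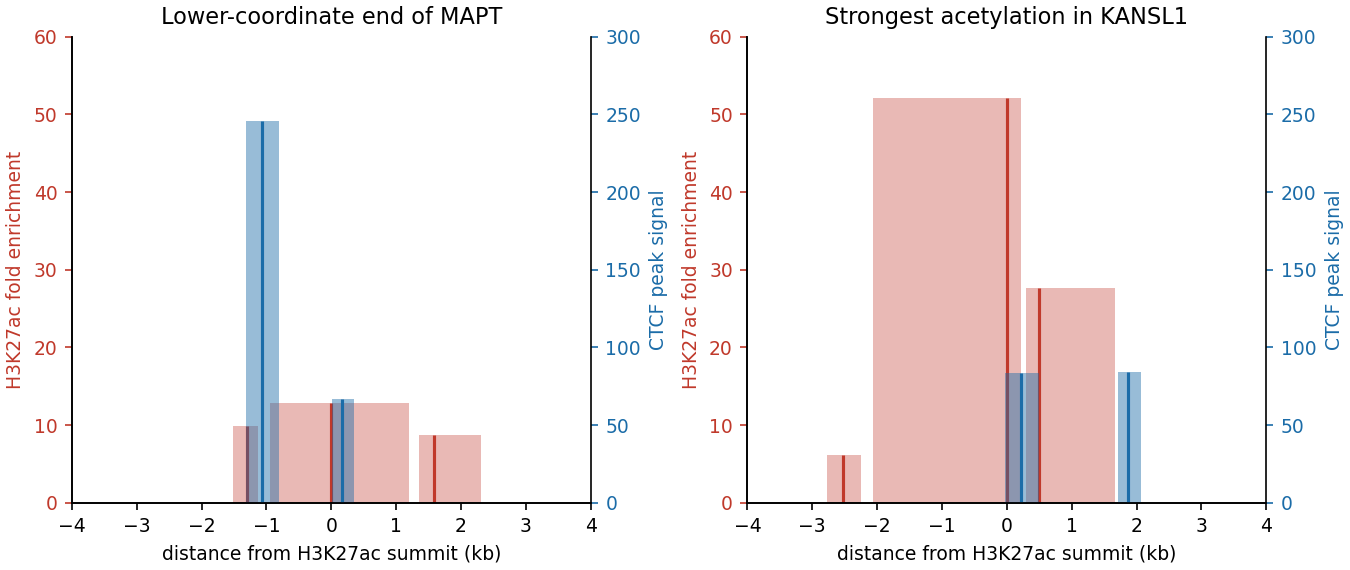
Peaks within 4 kb of the strongest H3K27ac summit of MAPT (left) and of KANSL1 (right). Each box spans a peak's interval and has the height of its single value, H3K27ac fold enrichment on the left axes and CTCF peak signal on the right axes, with a line at the summit. In both panels a CTCF summit stands in the space between neighbouring H3K27ac boxes. This space is 174 bp wide just below the MAPT interval and 77 bp wide inside KANSL1.

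Deeper in MAPT the H3K27ac peaks had lower fold enrichments than the 3 at its start. A pair of H3K27ac peaks lay 10.6 and 11.2 kb above the anchor, which is the summit of the strongest peak at 45895472, with fold enrichments of 7.28 and 2.49. Another pair lay 108 and 109 kb above it, with 3.45 and 2.29. The second peak of each pair had a q-value above 0.05. CTCF was listed at 53.8 kb with a signal of 88.2 and at 107 kb with 206. The latter peak, from 46002468 to 46002935, had the distal pair of H3K27ac peaks on its higher-coordinate side, with 1077 bp between nearest summits and no shared base.

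STH, an intronless gene nested inside MAPT that encodes saitohin, spans 45999250 to 45999694. No peak of either list overlapped it. The nearest CTCF peak was 2774 bp away and the nearest H3K27ac peak 4004 bp away, both in the distal part of MAPT just described. Its start window held 2 CpG, the fewest of the 13 windows.

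KANSL1 encodes a scaffold subunit of the NSL complex, which acetylates histone H4. It carried the strongest acetylation of the span, from 46191215 to 46193498 with a fold enrichment of 52.2, at percentile 99.45 of the H3K27ac list. The adjoining peak from 46193576 to 46194943 had 27.6 and overlapped the antisense gene KANSL1-AS1. Together with a weaker peak of 6.14 they covered 4185 bp within 4.44 kb, the widest acetylated group of the 12 in the span when peaks under 5 kb apart were joined. The start windows at 46192782 and 46194050 lay entirely under the 52.2-fold and the 27.6-fold peak. The window at 46224759 had no peak, and the nearest H3K27ac peak was 29767 bp away.

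The other 7 H3K27ac peaks of KANSL1 were weak and lay inside the gene, between 46100829 and 46159276, with fold enrichments from 3.18 to 7.07. None of them met a CTCF peak. They fell in a stretch of 142 kb without CTCF, from 46044719 to 46186965, which was longer than 87.4% of the spaces between CTCF peaks in the list. The 5 CTCF peaks of KANSL1 had signals of 194, 64.5, 83.3, 84.1 and 155 in order of position. The second to the fourth, between 46186965 and 46195343, surrounded the acetylated starts, and the strongest stood near the MAPT side of the gene at 46044271 to 46044719.

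CRHR1, the receptor for corticotropin-releasing hormone, had 5 CTCF peaks and no H3K27ac peak. Signals were 19.8, 31.1, 47.5, 111 and 242 in order of position, and the strongest ran from 45832073 to 45832521. At 9.71 CTCF peaks per 100 kb it had the highest CTCF density of the 9 genes. The peak over its start window, from 45784212 to 45785011, was weak, with a signal of 19.8 and a q-value above 0.05 (−log10 q of 1.02). A stronger CTCF peak with a signal of 245 stood just before it, from 45783150 to 45783643. The nearest H3K27ac peak to the start window was 109589 bp away, although the window held 36 CpG, the most of the 13.

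SPPL2C, an intronless gene for a signal peptide peptidase-like protease, is nested in MAPT-AS1 between CRHR1 and MAPT. It overlapped no peak. A CTCF peak with a signal of 261, from 45852643 to 45853124, stood 5576 bp from it, and the nearest H3K27ac peak was 46891 bp away. This CTCF peak was the strongest between SPPL2C and MAPT and ranked below only 2 others in the whole span.

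CRHR1 and SPPL2C both fell in the longest acetylation-free stretch that lay wholly inside the span, 307 kb from 45586629 to 45893958. It was longer than 98.2% of the 78616 spaces between H3K27ac peaks, whose median was 3.57 kb. It held 15 of the 31 CTCF peaks, with signals from 14.6 to 327, and ended at the acetylated start of MAPT. The strongest of the 15 ran from 45640317 to 45640802 in LINC02210, a long noncoding gene that is also the first part of the read-through gene LINC02210-CRHR1.

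PLEKHM1, an adaptor that helps late endosomes and autophagosomes fuse with lysosomes, had 1 H3K27ac peak at its higher-coordinate end, from 45490444 to 45490752, with a fold enrichment of 4.61. A partner peak of 5.07 followed from 45491164 to 45491493 in LOC105369225, a noncoding gene on the opposite strand. The start window of PLEKHM1 shared 81 of its 300 bases with the first peak, and most of the printed sequence lies in the space between both. No CTCF peak overlapped the gene, and the nearest was 5720 bp away.

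ARHGAP27, a GTPase-activating protein, showed the reverse. It had no H3K27ac peak, but its peak from 45427978 to 45428489 had the highest CTCF signal of the span, 367, at percentile 99.45 of the CTCF list. A further CTCF peak had 203. All 3 of its start windows lacked both marks, and the nearest H3K27ac peak inside the span was 57324 bp from any of them. Outside the span, below ARHGAP27, an H3K27ac peak lay nearer, 21052 bp from the gene interval.

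**Figure D3:**
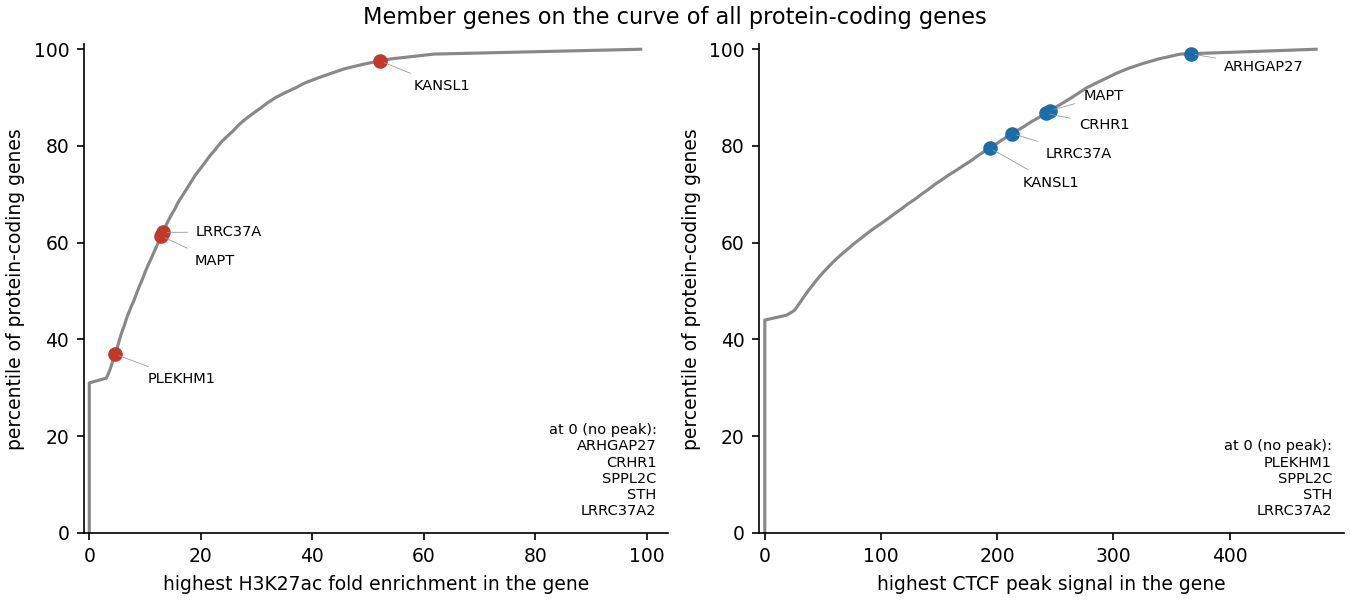
Highest H3K27ac fold enrichment (left) and highest CTCF peak signal (right) of each member gene on the cumulative curve of 19974 protein-coding genes, with the percentile of genes on the vertical axis. Genes without a peak are listed at 0. KANSL1 stands at 52.2-fold for H3K27ac and ARHGAP27 at 367 for CTCF, near the top of each curve, and MAPT at 12.9 and 245. The MAPT value of 245 comes from a peak whose summit lies outside the gene interval.

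LRRC37A and LRRC37A2 encode proteins with leucine-rich repeats and are copies in segmental duplications. The start window of LRRC37A was identical to the window of LRRC37A2 at 46512710 in 300 of 300 bases, as the printed pair shows, so a read that lies within these bases matches both copies. How such reads were handled is not given in the sources used here. Neither window had a peak of either list, and the part of multiply matching reads in this was not tested. LRRC37A overlapped 3 H3K27ac peaks from 46266274 to 46268148, with fold enrichments of 12.4, 13.2 and 3.25. The last 2 overlapped the pseudogene LOC100132570, and the group lay 26733 bp from the start window of LRRC37A. LRRC37A also overlapped CTCF peaks with signals of 29.8, inside that acetylated group, and 213.

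LRRC37A2 had no peak between its listed start at 46372792 and the end of the span. Its listed interval continues to 47049128, and over all of it 12 CTCF and 31 H3K27ac peaks were found, so its place among the genes without either mark holds for the part inside the span alone. That part lay in a space of 495 kb without CTCF (46287064 to 46782229) and in one of 354 kb without H3K27ac (46367381 to 46721025). Both were longer than at least 98.6% of the spaces in their lists, and both reach beyond the span. An isolated H3K27ac peak of 136 bp and a fold enrichment of 6.23 lay 5411 bp before the listed interval. It was 144837 bp from the nearer start window of LRRC37A2.

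The spaces between members were unequally marked. The 294 kb between PLEKHM1 and CRHR1 held 10 CTCF and 5 H3K27ac peaks, and the strongest acetylation there, 16.2-fold from 45583895 to 45585580, lay beside the pseudogene DND1P1. It was the highest fold enrichment of the span outside KANSL1, and 3 CTCF peaks with signals from 28.5 to 96.3 overlapped the group of 4 H3K27ac peaks. The 47.5 kb between SPPL2C and MAPT held 2 CTCF peaks and 1 H3K27ac peak. No peak lay between ARHGAP27 and PLEKHM1, between MAPT and KANSL1 or between KANSL1 and LRRC37A.

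Of the 30 other annotated genes lying wholly in the span, 7 overlapped an H3K27ac peak, beside 35.3% of the 59098 RefSeq genes on the 23 chromosomes used, and 8 a CTCF peak, beside 28.3%. Among the 11 long noncoding genes, 5 overlapped H3K27ac: LOC105369225, MAPT-AS1, MAPT-IT1, LOC107985027 and KANSL1-AS1. The background was 33.8% of 18177 long noncoding genes. CTCF peaks met 4 of the 11, beside 26.7%. Of the 15 pseudogenes, DND1P1 and LOC100132570 overlapped both marks, and 13 overlapped neither. Among 16458 pseudogenes, 3.23% overlapped H3K27ac, 3.37% CTCF and 1.26% both. The read-through gene LINC02210-CRHR1 had no H3K27ac peak.

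Start windows were set beside their CpG content. Across protein-coding genes an H3K27ac peak met 80.0% of the 11700 windows with at least 20 CpG and 33.3% of the 10432 with fewer. Among the 13 windows of member genes it met 3 of 6 and 0 of 7. The 3 CpG-rich member windows without acetylation were those of CRHR1 (36 CpG), of KANSL1 at 46224759 (30 CpG) and of ARHGAP27 at 45432870 (21 CpG). The window of NSF, which is in the span but is not a member, held 48 CpG and had no H3K27ac peak. In all, 3 of the 13 windows had an H3K27ac peak, beside 58.0% of protein-coding windows, and 1 had a CTCF peak, beside 20.6%. Windows of a gene share its surroundings and are not independent.

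**Figure D4:**
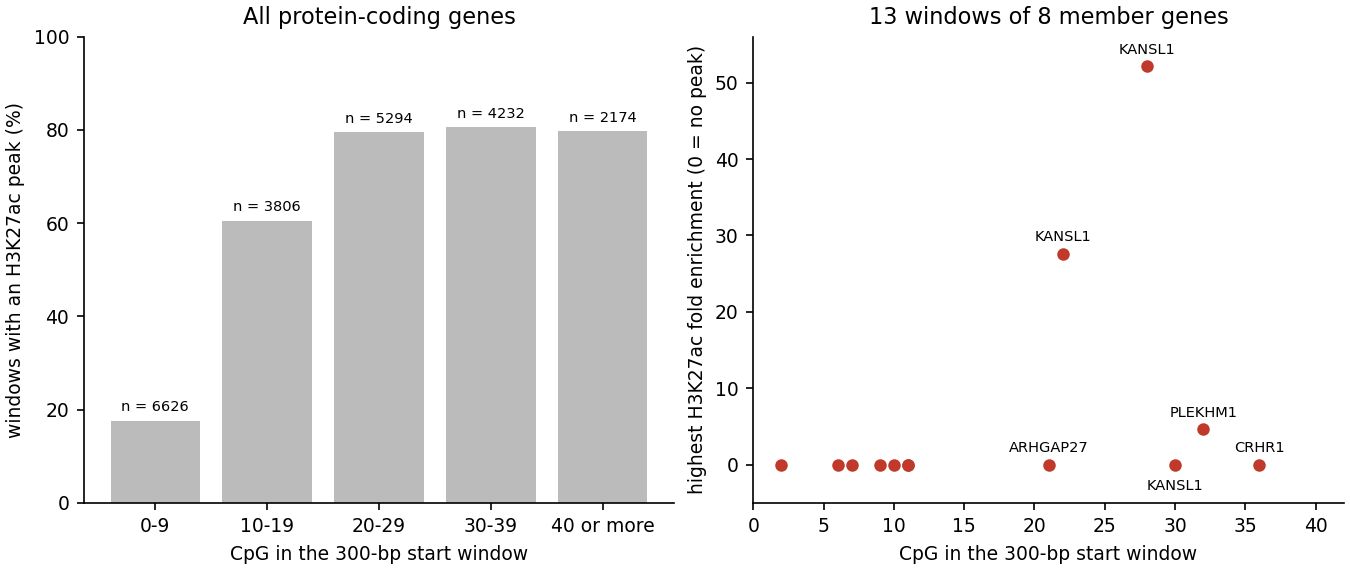
Left, share of start windows of protein-coding genes with an H3K27ac peak (%), by the number of CpG in the 300-bp window, with the number of windows above each bar. Right, the 13 windows of 8 member genes by CpG number and highest H3K27ac fold enrichment, with 0 for no peak and names for windows of at least 20 CpG. KANSL1 has 2 acetylated windows at 52.2 and 27.6 and the other at 0.

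Set beside its list, the span had 25.7 CTCF peaks per Mb against 14.8 over the whole list, and more peaks than 86.1% of 2430 tiled windows of equal length. For H3K27ac it had 22.4 per Mb against 26.8, above 50.7% of windows. The windows were laid end to end along each chromosome whatever their gene content, whereas the span was set by its genes. The median CTCF signal was 84.1 in the span and 91.0 in the list, and the median H3K27ac fold enrichment 6.14 and 4.74. Of the 31 CTCF peaks, 7 overlapped H3K27ac (22.6%, 95% Wilson interval 11.4 to 39.8%), beside 28.1% of the list. Of the 27 H3K27ac peaks, 8 overlapped CTCF (29.6%, 95% Wilson interval 15.9 to 48.5%), beside 16.2%. Both intervals included the share of their list. A width of exactly 800 bp was shared by 8 CTCF peaks of the span (25.8%), beside 33.4% of the list.

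By number of peaks and highest value of each mark, the protein-coding genes most like MAPT were RRBP1, SLC35F4, POC1B, ASTN1 and BAZ2A, with distances from 3.49 to 4.11 over 4 percentile ranks. RRBP1, the closest, had 6 H3K27ac peaks with a highest fold enrichment of 13.7, and 5 CTCF peaks with a highest signal of 248. MAPT had 6, 12.9, 4 and 245 for the same measures. The summit of the CTCF peak of 245 lay outside the MAPT interval. With summits required inside the gene, MAPT had 3 CTCF peaks, the strongest with a signal of 206.

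The labelled cell type was checked against marker genes. All 10 neuron markers overlapped an H3K27ac peak, with highest fold enrichments from 5.54 to 47.0, and so did all 7 neural progenitor markers, from 9.10 to 50.3, beside 69.0% of protein-coding genes. The median of the highest fold enrichments was 15.9 for the neuron list and higher, 35.35, for the progenitor list. The numbers were 5 of 6 for astrocyte, 2 of 6 for oligodendrocyte, 2 of 6 for pluripotency and 2 of 6 for liver and muscle markers. Of the pluripotency markers, CRIPTO, ZFP42, POU5F1 and NANOG had no peak, while DPPA4 and LIN28A did, with a highest fold enrichment of 7.63. The lists do not measure cell composition, and the part of progenitors in the values at MAPT and its neighbours was not tested.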

How the data were processed

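The deposited files were 1 peak list per antibody for both replicates, with 0 columns of per-sample values. Input libraries were not analysed here. Per the submitters' processing notes, the build was hg38 and cutadapt 1.16 was used. The aligner and peak caller are not given in the sources used here. The CTCF signal is the authors' value on an unstated scale, and the deposited H3K27ac signal, which the file does not name, was read from its values and layout as a fold (ratio) at the summit. Deposited −log10 q values were used as listed, and the authors' score was not used. Peaks and RefSeq intervals (GRCh38.p14) were joined on at least 1 bp with Python 3.11.15, pandas 2.3.3, NumPy 2.4.6 and SciPy 1.17.1, on 23 chromosomes, and the overlap step was tested on simulated data. Shares have 95% Wilson intervals.

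The span was ended at 46600000, since the listed LRRC37A2 interval runs to 47049128. This was decided after the table was seen. CpG classes, groups of peaks, spaces and summits between acetylated intervals were also chosen then. The members and lists were chosen with earlier results of these data known. Named were all 9 genes, every peak of MAPT, the strongest peaks of each gene and space, other genes in the span, and the 5 genes closest to MAPT. Alternatives were the definition of overlap, stricter lists, merged CTCF entries, widths, window ends and gene flanks. Exon and intron annotation was not used here. Some items in the span are not reported here.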

Additional observations from a re-analysis of the deposited data

How the results depend on the processing

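No paired analysis was possible because each list covers both replicates together, and leaving out each replicate was not run for the same reason. Of 47 alternatives, 37 left a count within 1.5 times or a share within its interval, and 10 moved the value, where any change of a median was counted as a move; the cause of a move was not tested unless the alternative's construction gives it. In the strongest 50% of each list, which is shorter, the span held 14 CTCF peaks (31 in full) and 16 H3K27ac peaks (27 in full), and MAPT overlapped 2 CTCF and 3 H3K27ac peaks (4 and 6 in full). Without CTCF peaks of 800 bp, all 8 of which had signals below the list's median, the median CTCF signal of the span was 155 instead of 84.1. With a rounded window that begins below ARHGAP27, the medians were 82.98 for CTCF signal and 6.65 for H3K27ac fold enrichment. With LRRC37A2 taken to the end of its listed interval, an alternative chosen after seeing the data, the span held 58 H3K27ac peaks, with medians of 96.3 for CTCF signal and 5.62 for H3K27ac fold enrichment. Shares of CTCF peaks overlapping H3K27ac ran from 14.3% to 27.8% over the alternatives. Depth is unknown, so a gene without a listed peak may still carry weak signal.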

Other observations

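The listed interval of LRRC37A2 extends past the span to 47049128. The highest H3K27ac fold enrichment over that whole interval was 29.6. The interval covers other genes such as NSF, so its peaks are not assigned to LRRC37A2 here.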
